A study of Arabidopsis thaliana with 12 samples.

Results

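Aminoethoxyvinylglycine (AVG) was given to the ethylene-overproducing mutant eto1-4, and the transcripts of whole dark-grown Arabidopsis thaliana seedlings were compared with those of the same mutant without it. The comparison rests on 4 of the 12 arrays of the series, chosen by their labels: 2 arrays of eto1-4 grown with 10 µM AVG and 2 arrays of untreated eto1-4. The series also holds 2 arrays each of eto1-4 with 10 µM of the compounds 9393, 9370 and 7303, described here by their codes alone, and 2 arrays of the wild type. All seedlings were in the Col-0 ecotype, 3 days old, grown on 0.5x MS medium without light, and every group other than the wild type carried the eto1-4 allele. The labels do not say how many seedlings went into an array, and they speak of independent sets without tying arrays to separate cultures. P-values therefore measure the spread between these arrays, which may be technical.

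Ethylene is made from methionine by way of S-adenosylmethionine and ACC, the product of ACC synthase. ACC synthase uses pyridoxal phosphate as its cofactor, and AVG inhibits this enzyme together with other pyridoxal phosphate enzymes, among them aminotransferases that make the precursor of auxin. ETO1 marks a class of ACC synthases for degradation, so eto1 mutants overproduce ethylene, and dark-grown seedlings with excess ethylene stay short, thicken and keep a curled apical hook. ETO1 and the ACC synthase genes were not analysed here, so the mutant label was not checked through its own gene.

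The array control probe sets and the replicates show how the arrays stand to one another. Poly-A spike RNA, which is added before labelling, read above 0.1 of the array median on 8 arrays, including both AVG arrays and untreated eto1-4 replicate 2, and below it on 4, including untreated eto1-4 replicate 1. The 2 AVG arrays correlated at r = 0.975 over the tested probe sets, with a median absolute difference of 0.179 on the log2 scale. The 2 untreated arrays correlated at r = 0.939, with a median absolute difference of 0.291. Untreated eto1-4 replicate 1 also carried higher seed transcripts than its partner. Values without untreated replicate 1 or AVG replicate 1 therefore stand beside some of the main results. The named calls that held in either of these fits are listed below. No other named call held in them, also where the values are not given.

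Probe sets were tested where the signal lay above the 40th percentile of the array on at least 2 arrays. Of the 14830 probe sets tested in limma, 789 (5.32%) were called between AVG and untreated eto1-4 at an adjusted p under 0.05. With AVG 437 (2.95%) were higher and 352 (2.37%) were lower, and 411 of the 789 name 1 gene. Differences past 1 on the log2 scale made up 592 of the calls and those past 2 made up 118, with medians of 1.26 among the higher and -1.21 among the lower calls, against -0.0445 over all probe sets tested. The AVG arrays and the untreated arrays did not overlap in any of the 789, against 58.2% of all probe sets tested. Fold changes are differences of log2(signal + 22.4), an offset that shrinks the change of dim genes. The plot of all probe sets shows calls on both sides over most of the range of signal.

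**Figure D1:**
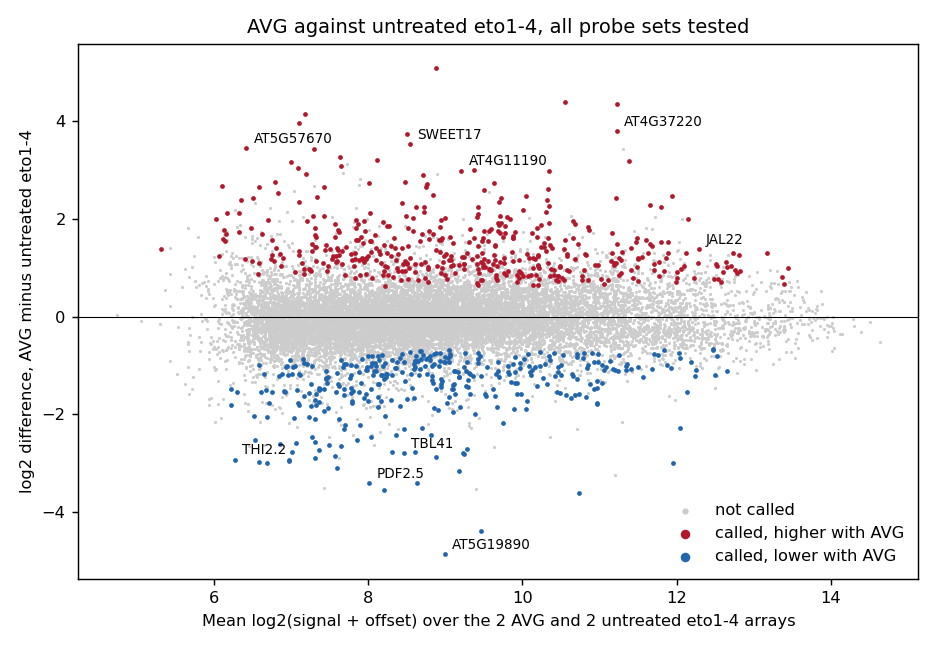
Each point is 1 of the 14830 probe sets tested, at its mean log2(signal + offset) over the 4 arrays (x axis) and its log2 difference, AVG minus untreated eto1-4 (y axis). Red marks the 437 called higher and blue the 352 called lower with AVG, and 9 named genes are labelled, from AT4G37220 at 3.80 ± 0.84 to AT5G19890 at -4.88 ± 0.54.

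The number of calls depended on single arrays. Without untreated replicate 1, 18 probe sets (0.121%) were called, 17 of them among the 789, and without AVG replicate 1, 4 (0.027%) were called. The sign of all 789 was fixed in advance in both fits, because the AVG and untreated arrays did not overlap in any of them. Their median absolute difference was 1.20 and 1.13, against 1.24 in all arrays. With only the arrays that carry the spike, 1040 (7.01%) were called, of which 526 were among the 789. Of the 69 called genes that the naming rule took, 6 stayed called without untreated replicate 1 (AT4G11190, AT3G51410, AT5G19890, AT5G66310, AT2G43535 and AT2G28410), 2 without AVG replicate 1 (AT4G11190 and AT3G51410), 42 without untreated replicate 2 and 42 without AVG replicate 2. A fit that leaves a group with 1 array assumes that this array varies like the other groups.

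**Figure D2:**
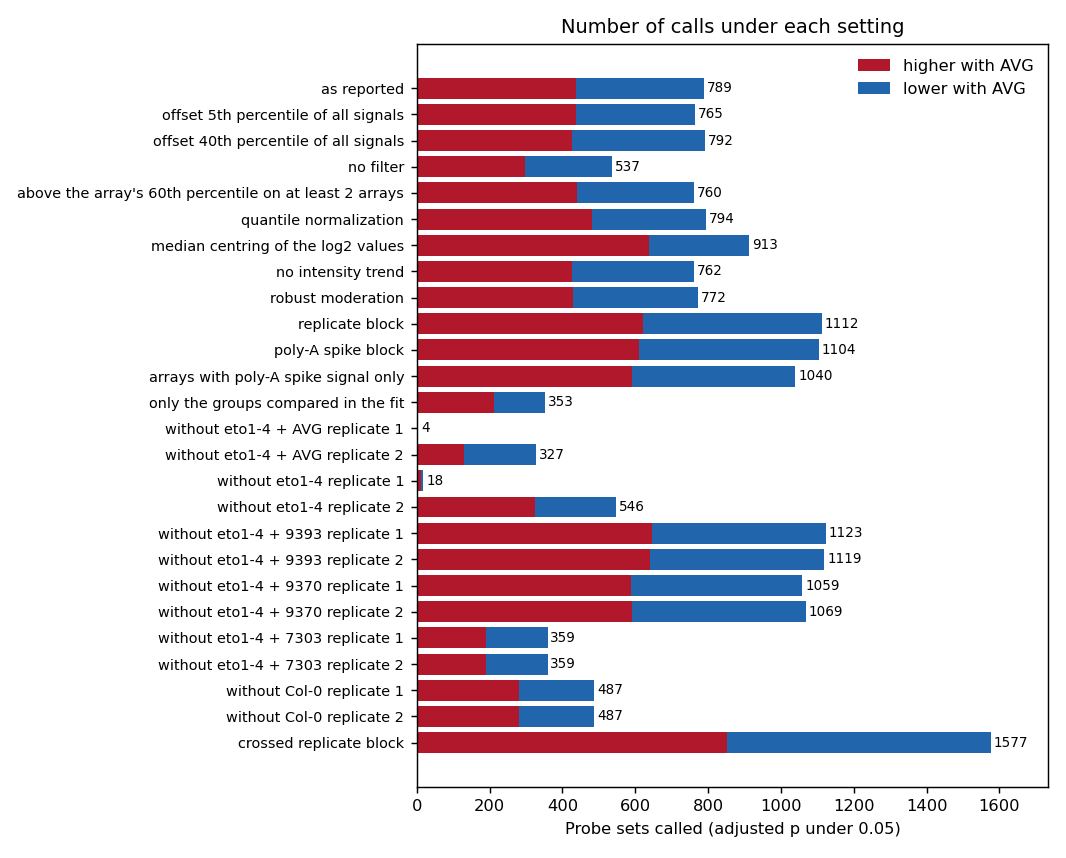
Number of probe sets called between AVG and untreated eto1-4 under each setting (x axis), split into higher (red) and lower (blue) with AVG. The count is 789 as reported, 4 without AVG replicate 1, 18 without untreated replicate 1 and 1577 with the crossed replicate block.

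The measured genes on the lists of ethylene synthesis and signalling gave 1 call, in ethylene synthesis. Signals are given on the linear scale as deposited, for replicate 1 and then replicate 2 of each group. AT1G12010, an ACC oxidase that makes ethylene from ACC, had signals of 1185 and 1161 with AVG, against 547 and 482 in untreated eto1-4. Both AVG arrays lay above both untreated arrays, and also above the Col-0 arrays at 541 and 405. The rise was 1.16 ± 0.28 on the log2 scale (SE, adjusted p = 0.0423), it missed the threshold after quantile normalization at adjusted p = 0.0536, and it was 1.24 without untreated replicate 1 (adjusted p = 0.137). It was the only measured member of the ethylene synthesis list.

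None of the 6 measured genes on the list of ethylene perception or signalling passed the test, against 5.32% of all probe sets called. Their median difference was -0.14. RTE1, a membrane protein that promotes the action of the ethylene receptor ETR1, had 268 and 465 with AVG, against 788 and 782 in untreated eto1-4. AVG replicate 1 lay near the Col-0 arrays, at 226 and 119, and AVG replicate 2 between them and the untreated mutant, with no overlap between the groups. The difference was -1.10 ± 0.30 (adjusted p = 0.0601). ARL, an ARGOS-like regulator of organ growth, had 990.4 and 2678 with AVG, against 4542 and 3761 in untreated eto1-4, and Col-0 791 and 631. Again AVG replicate 2 lay closer to the untreated mutant than replicate 1, and the difference was -1.33 ± 0.37 (adjusted p = 0.0662). Without AVG replicate 2 it was -2.04 (adjusted p = 0.0125), past the threshold.

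In all 6 of these genes AVG replicate 2 was nearer to the untreated mean than AVG replicate 1, against 61.8% of all probe sets tested. The AVG arrays were nearly equal in ETP2, at 178 and 177, and differed little in EIN3. EIN3, the transcription factor at the end of the ethylene pathway, had 3805 and 3708 with AVG, against 2264 and 3015 in untreated eto1-4, a difference of 0.52 ± 0.30 with an adjusted p of 0.316. ETP2, an F-box protein that targets EIN2, differed by 0.36 ± 0.21 (adjusted p = 0.327). RTH, a relative of RTE1, differed by 0.28 ± 0.21 (adjusted p = 0.452), and AT4G32330 by -0.56 ± 0.18 (adjusted p = 0.0908). The 3 genes higher on average and the 3 lower on average leave no shared direction in this list. ETR1 and EIN2 were not among the 6, so the list covers only a part of the pathway.

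The methionine cycle feeds ethylene synthesis and regenerates methionine from its by-product. None of its 7 measured genes was called, against 5.32% of all probe sets. With the spike signal as a term of the fit, 1 of these genes was called lower and their median was -0.234. In the fit as reported the median was -0.07, which turned to 0.0317 when each array was centred on its median. MGL, methionine gamma-lyase, which breaks methionine down and uses pyridoxal phosphate, had 3885 and 4368 with AVG, against 1622 and 1558 in untreated eto1-4. Both AVG arrays exceeded both untreated arrays by more than the spread between the replicates of either group, but the difference of 1.36 ± 0.66 (SE) had an adjusted p of 0.24 in the fit shared by all groups. The Col-0 arrays read 660.0 and 595. SAMDC, an S-adenosylmethionine decarboxylase of polyamine synthesis, had 11615 and 11214 with AVG, against 10268 and 13093 in untreated eto1-4, and its groups overlapped.

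The other cycle genes also stayed short of the threshold in the fit as reported. AT5G15950, a further S-adenosylmethionine decarboxylase, differed by -1.13 ± 0.47 (adjusted p = 0.178), and its untreated arrays differed widely, at 522 and 1490.3. MMT, which makes S-methylmethionine, differed by -0.66 ± 0.20 (adjusted p = 0.0811), and CBL, cystathionine beta-lyase of methionine synthesis, by -0.36 ± 0.25. ARD4, an acireductone dioxygenase of the salvage branch, differed by 0.52 ± 0.28 and HMT-1, a homocysteine methyltransferase, by -0.07 ± 0.30. Of the 6 tested pyridoxal phosphate enzymes other than ACC synthase, 1 was called, against 5.32% of all probe sets. This was AT1G50110, a branched-chain aminotransferase, which read 35.8 and 126 with AVG, against 660.3 and 286 in untreated eto1-4, a difference of -2.30 ± 0.49 (adjusted p = 0.0283).

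Sugar transporters of the SWEET family carry sugars across the plasma or vacuole membrane. Among 6 tested members 4 rose and none fell, against 2.95% of all probe sets called higher and 2.37% called lower. The median difference of the 6 was 1.41. This list and the others were chosen with earlier results of these data known. Their counts therefore describe the members and are not a test of the family. SWEET17 (AT4G15920), a fructose carrier of the vacuole membrane, had 1699.9 and 914 with AVG, against 61.5 and 122 in untreated eto1-4, and Col-0 953 and 692. Both AVG arrays were higher by several fold than both untreated arrays, and the rise was 3.53 ± 0.61 (SE, adjusted p = 0.016). SWEET16, also at the vacuole, had 1503 and 1318 with AVG, against 389.8 and 392 in untreated eto1-4, and rose by 1.79 ± 0.21 (adjusted p = 0.00714). SWEET3 had 688 and 824 with AVG, against 157 and 179 in untreated eto1-4, and rose by 2.03 ± 0.43 (adjusted p = 0.0284). In each of these 3 genes the lowest AVG array stood above the highest untreated array, as the plot of signals by array shows.

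SWEET11, a sucrose exporter of the plasma membrane, had 5819 and 6635 with AVG, against 2691 and 3409.6 in untreated eto1-4, and rose by 1.03 ± 0.26 (adjusted p = 0.0477). SWEET2 and SWEET1 were not called. SWEET2 had 1583 and 755 with AVG, against 326 and 1116 in untreated eto1-4, and its groups overlapped. Without untreated replicate 1 the rises of the 4 called genes were 0.86 to 3.14, with the smallest adjusted p at 0.0506, and without AVG replicate 1 they were 1.13 to 3.09, so that none was called in either fit. SWEET11 also missed the threshold after quantile normalization, at adjusted p = 0.0625.

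**Figure D3:**
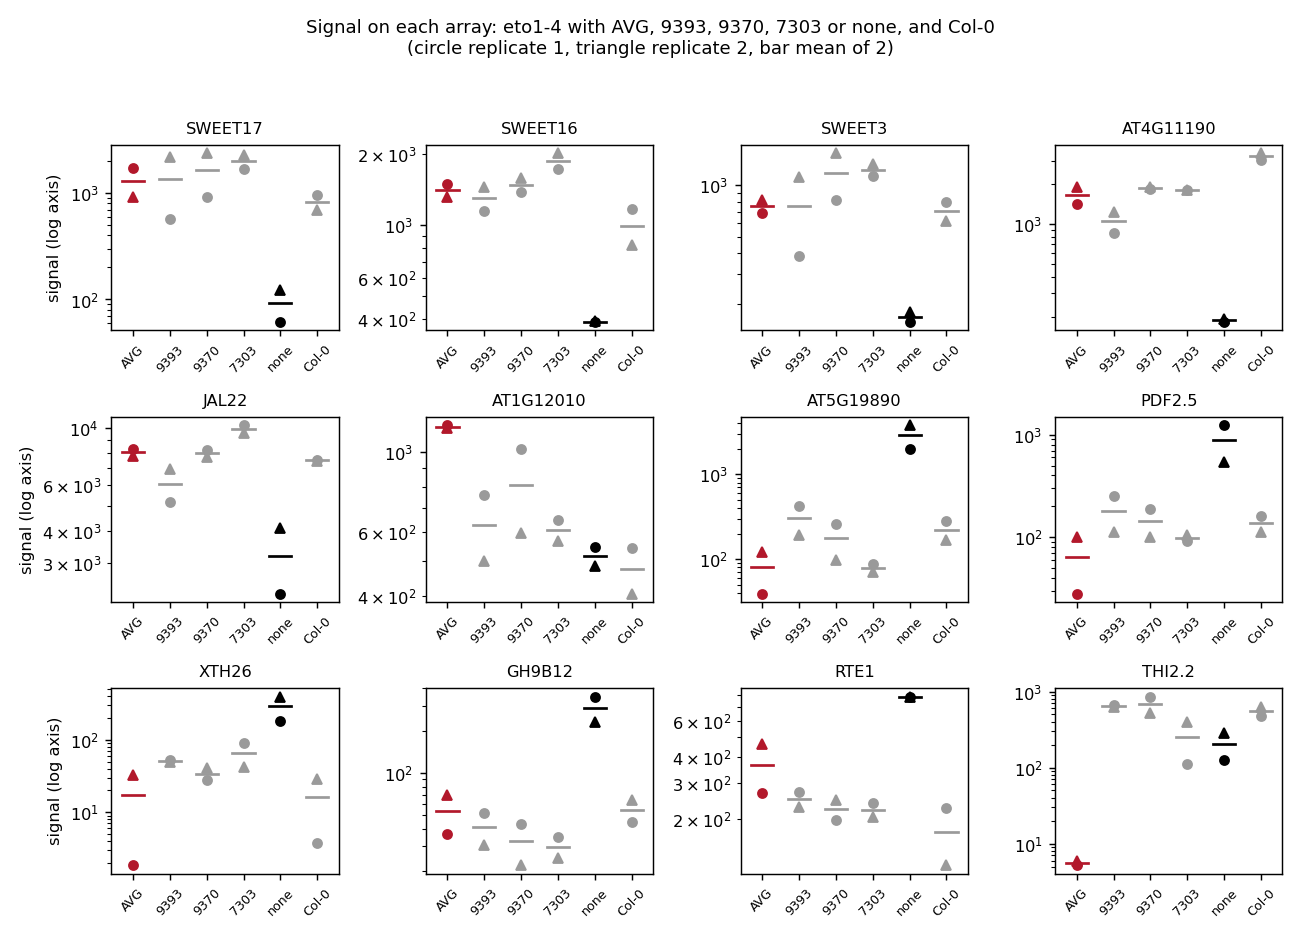
Deposited signal on every array (log axis) for 12 genes, in eto1-4 with AVG, 9393, 9370 or 7303, in untreated eto1-4 (none) and in Col-0. Circles are replicate 1, triangles replicate 2 and bars the mean of 2. In SWEET17, SWEET16, SWEET3 and AT4G11190 the AVG arrays lie above the untreated mutant, in AT5G19890, PDF2.5, XTH26 and GH9B12 below it, and in THI2.2 the AVG arrays alone lie near 5.

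AT4G11190, a dirigent protein of the family that guides lignan and lignin coupling, gave the smallest adjusted p of the comparison. Its signal was 1423 and 1895 with AVG, against 182 and 192 in untreated eto1-4, and 3049.6 and 3404 in Col-0. The AVG arrays stood far above the untreated mutant but below the wild type. The rise was 2.99 ± 0.21 (adjusted p = 0.000871), and against Col-0 the difference was -0.96 (adjusted p = 0.0271). This gene and AT3G51410 were the named genes called in all 25 other settings.

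Among 9 tested dirigent genes, 1 rose and 1 fell, against 2.95% of all probe sets called higher and 2.37% called lower. The gene that fell, AT1G58170, had 38.9 and 37.3 with AVG, against 133 and 167 in untreated eto1-4, and fell by 1.51 ± 0.35 (adjusted p = 0.0395), a call that was lost after quantile normalization at adjusted p = 0.0515 and after median centring at 0.0503. AT3G51410, for which no role is given, had 183 and 151 with AVG, against 931 and 856 in untreated eto1-4. The AVG arrays were lower than the untreated mutant and also than Col-0, at 293 and 245, and the difference from the mutant was -2.28 ± 0.19 (adjusted p = 0.00247).

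Jacalin-related lectins, sugar-binding proteins that include partners of myrosinase, gave 2 rises among 3 tested, against 2.95% of all probe sets called higher. JAL22 had 8298 and 7758 with AVG, against 2287 and 4103 in untreated eto1-4, and rose by 1.38 ± 0.26 (adjusted p = 0.0202), and JAL33 had 10901 and 11398 with AVG, against 3655 and 5803 in untreated eto1-4, and rose by 1.27 ± 0.28 (adjusted p = 0.0333). Both AVG arrays were above both untreated arrays in each gene, and JAL22 read 7482 and 7473 in Col-0. JAL34 differed by 0.62 ± 0.24, with an adjusted p of 0.156. Without untreated replicate 1, JAL22 and JAL33 differed by 0.96 and 0.94 (adjusted p = 0.102 and 0.184).

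Xyloglucan endotransglucosylases cut and rejoin the xyloglucan chains that tie cellulose fibres of the wall. Of 7 tested, 3 fell and none rose, against 2.37% of all probe sets called lower, with a median of -1.20. XTH26, known from root hairs, had 1.86 and 32.7 with AVG, against 183 and 392 in untreated eto1-4, and fell by 2.99 ± 0.51 (adjusted p = 0.0154). The AVG mean lay below the added offset of 22.4, so the size of this change depends on the offset, and the Col-0 arrays were also dim at 3.75 and 28.6. XTH19 had 3269 and 4402 with AVG, against 8282 and 9197 in untreated eto1-4, and fell by 1.20 ± 0.20 (adjusted p = 0.0151). XTH33 had 814 and 1044 with AVG, against 2158 and 3733 in untreated eto1-4, and fell by 1.60 ± 0.40 (adjusted p = 0.0467), and it missed the threshold after median centring at adjusted p = 0.0565. Without untreated replicate 1 the differences were -3.50 for XTH26, -1.27 for XTH19 and -1.99 for XTH33 (adjusted p = 0.0506, 0.0699 and 0.0962). XTH32 had the second largest difference of the list, -2.68 ± 0.68, with an adjusted p of 0.0511.

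Endoglucanases of glycosyl hydrolase family 9, which act on cellulose and related glucans, gave 3 lower calls among 8 tested, against 2.37% of all probe sets. Their median was -0.96, and -0.56 without AVG replicate 1. GH9B12 had 36.7 and 69.8 with AVG, against 349.8 and 231 in untreated eto1-4, and fell by 2.06 ± 0.35 (adjusted p = 0.0154). GH9B8 had 121 and 148 with AVG, against 500.5 and 347 in untreated eto1-4, and fell by 1.49 ± 0.28 (adjusted p = 0.0214). GH9C2 had 1395 and 2445 with AVG, against 3933 and 3921 in untreated eto1-4, and fell by 1.08 ± 0.25 (adjusted p = 0.0387). The groups did not overlap in any of the 3. Without untreated replicate 1 GH9B12 differed by -1.78 (adjusted p = 0.102), and without AVG replicate 1 by -1.74 (adjusted p = 0.164). For GH9B12 the AVG arrays lay on either side of Col-0, which read 44.5 and 64.4, and for GH9B8 and GH9C2 below it, at 273 and 366 and 3609 and 4316.

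The other wall families had few calls, where 5.32% of all probe sets were called. TBL41, of the family that acetylates wall polymers, had 101 and 122 with AVG, against 834 and 988 in untreated eto1-4, and fell by 2.80 ± 0.41 (adjusted p = 0.0117), as the only call among 15 tested members, and without untreated replicate 1 it differed by -2.92 (adjusted p = 0.0579). EXLB1, an expansin-like protein, had 575 and 452 with AVG, against 147 and 215 in untreated eto1-4, and rose by 1.41 ± 0.28 (adjusted p = 0.0231), the only call among 14 expansins. AT4G25250, a pectin methylesterase inhibitor, had 487 and 258 with AVG, against 42.5 and 51.1 in untreated eto1-4, and rose by 2.45 ± 0.32 (adjusted p = 0.00899). AT3G43270, a pectin methylesterase, had 398 and 733 with AVG, against 1414 and 1960.4 in untreated eto1-4, and fell by 1.58 ± 0.27 (adjusted p = 0.016). These were the 2 calls among 13 pectin genes. EXPA9, an alpha-expansin that loosens walls, had 495 and 2685 with AVG, against 5942 and 4701 in untreated eto1-4, with 1 AVG array far below the other, and an adjusted p of 0.0687. No cellulose synthase or related gene was called among 8.

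Class III peroxidases, secreted enzymes that form or cleave cross-links in the wall, gave 4 falls and 2 rises among 35 tested, against 5.32% of all probe sets called. Their median of -0.31 was -0.0041 without AVG replicate 1 and -0.0711 without untreated replicate 2. AT5G19890 had 39.4 and 121 with AVG, against 1982 and 3798 in untreated eto1-4, the largest fall among the named genes. The AVG arrays also lay below Col-0, at 278 and 168, and the difference from the mutant was -4.88 ± 0.54 (adjusted p = 0.00632). It was still called without untreated replicate 1, at -5.34 (adjusted p = 0.0323), and missed the threshold without AVG replicate 1, at -4.27 (adjusted p = 0.0743).

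AT3G49960 had 20.6 and 93.0 with AVG, against 329 and 723 in untreated eto1-4, and fell by 2.86 ± 0.50 (adjusted p = 0.0164). With AVG replicate 1 below the offset its size depends on the offset, and it lay between -3.57 and -2.01 over the alternatives. AT4G26010 had 572 and 1161 with AVG, against 2118 and 2840.4 in untreated eto1-4, and fell by 1.56 ± 0.37 (adjusted p = 0.0422), which missed the threshold after median centring at adjusted p = 0.0503. AT1G49570 had 648 and 1733 with AVG, against 3063 and 4424 in untreated eto1-4, and fell by 1.77 ± 0.39 (adjusted p = 0.0329). In all of these AVG replicate 2 was closer to the untreated arrays than replicate 1. Of the 2 that rose, AT2G37130 had 14259 and 17237 with AVG, against 7598 and 8203 in untreated eto1-4, and rose by 0.99 ± 0.18 (adjusted p = 0.0192). The other, AT3G21770, had 1608 and 2089.9 with AVG, against 975 and 868 in untreated eto1-4, and rose by 0.98 ± 0.19 (adjusted p = 0.0219). Without AVG replicate 1 no peroxidase was called.

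Of 7 tested genes on the list of small secreted defence peptides 2 fell, against 2.37% of all probe sets called lower. The list was drawn by locus and symbol and need not hold every such peptide. The list's median of -1.16 rests on untreated replicate 1, since it was -0.0977 without that array and also with the spiked arrays only, where 1 member was called higher and 3 lower. PDF2.5, a plant defensin, had 28.1 and 101 with AVG, against 1245 and 541 in untreated eto1-4, and 162 and 112 in Col-0. Both AVG arrays were below all of these, and the signal fell by 3.42 ± 0.52 from the untreated mutant (adjusted p = 0.0121). THI2.2, a thionin, had 5.21 and 5.90 with AVG, against 127 and 283 in untreated eto1-4. Its Col-0 arrays read 479 and 621, so the AVG arrays lay below both other groups. The difference from the untreated mutant was -2.94 ± 0.49 (adjusted p = 0.0148), with an AVG mean below the offset, so that its size depends on the offset. Without untreated replicate 1 PDF2.5 differed by -2.84 and THI2.2 by -3.45 (adjusted p = 0.0717 and 0.0506).

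Enzymes of detoxification and secondary metabolism gave scattered calls, where 5.32% of all probe sets were called. GSTF4, a glutathione transferase, had 219.6 and 297 with AVG, against 124 and 79.6 in untreated eto1-4, and rose by 1.18 ± 0.27 (adjusted p = 0.0348), the only call among 10. CYP718, a cytochrome P450, had 3.55 and 55.2 with AVG, against 268 and 396 in untreated eto1-4, and was called lower (adjusted p = 0.016), the only call among 11. With 1 AVG array far below the offset the size of this change depends on the offset, and it lay between -4.11 and -1.81 over the alternatives. None of the 33 UDP-glycosyltransferases, which attach sugars to small molecules, was called. ALDH3F1, an aldehyde dehydrogenase, had 1093 and 1195 with AVG, against 3267 and 2801 in untreated eto1-4, and fell by 1.39 ± 0.17 (adjusted p = 0.00714). BGLU42, a beta-glucosidase, fell by 0.89 ± 0.22 and SCPL27, a serine carboxypeptidase-like protein, fell by 0.81 ± 0.20, at adjusted p of 0.0499 and 0.0441. Both of these calls were lost after quantile normalization and after median centring.

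ATG8 proteins coat the membrane that encloses cell contents for degradation in autophagy. Of 10 tested autophagy genes 9 were higher on average, 2 rose, against 2.95% of all probe sets, and the median was 0.33. APG8A had 3752 and 3489.8 with AVG, against 1895 and 2270.4 in untreated eto1-4, and rose by 0.80 ± 0.18 (adjusted p = 0.0326). ATG8C had 2773 and 2589 with AVG, against 1607 and 1734 in untreated eto1-4, and rose by 0.68 ± 0.16 (adjusted p = 0.0429). Groups did not overlap in either gene, and the Col-0 arrays read 2069 and 2465 for APG8A and 1378 and 1295 for ATG8C.

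Auxin is made from tryptophan through an aminotransferase and the YUC enzymes. The 12 measured auxin genes are a mix of early response genes, conjugating enzymes and YUC genes. None passed the test, against 5.32% of all probe sets called, and 10 were higher on average. Their median of 0.51 was 0.206 without untreated replicate 1, and 1 member was called higher after quantile normalization or median centring. GH3.17, which joins auxin to an amino acid, had 2169 and 1284 with AVG, against 479 and 887 in untreated eto1-4, and an adjusted p of 0.0961. LBD29, a regulator of lateral root formation, had 83.1 and 67.5 with AVG, against 26.7 and 13.2 in untreated eto1-4 (adjusted p = 0.0561). These 2 differed without overlap of groups, and IAA34, a repressor of auxin response, went the other way at -1.16 ± 0.39 (adjusted p = 0.109).

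Other regulators and structural genes were called singly. STZ, a zinc finger repressor of stress responses, had 85.1 and 131 with AVG, against 345 and 204 in untreated eto1-4, and fell by 1.17 ± 0.27 (adjusted p = 0.035). TUB1, a beta-tubulin, had 1983 and 3438 with AVG, against 7376 and 7919 in untreated eto1-4, and fell by 1.54 ± 0.29 (adjusted p = 0.0212). It was the only call among 8 tubulins and actins, against 2.37% of all probe sets called lower. AT4G38410, a dehydrin, had 57.9 and 93.0 with AVG, against 413 and 685 in untreated eto1-4, and fell by 2.53 ± 0.43 (adjusted p = 0.0151). No listed member was called among 12 glutaredoxins, 6 calmodulin-like proteins, 6 RALF-like peptides, 6 histones or 3 gibberellin receptors. These lists were drawn by locus and symbol and need not hold every gene of a family. None was called among 32 genes of ubiquitin conjugation and removal. Over all probe sets tested 5.32% were called, so the lack of a call in lists this small does not set them apart. The 32 ubiquitin genes had a median of 0.00, with 16 higher and 16 lower.

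**Figure D4:**
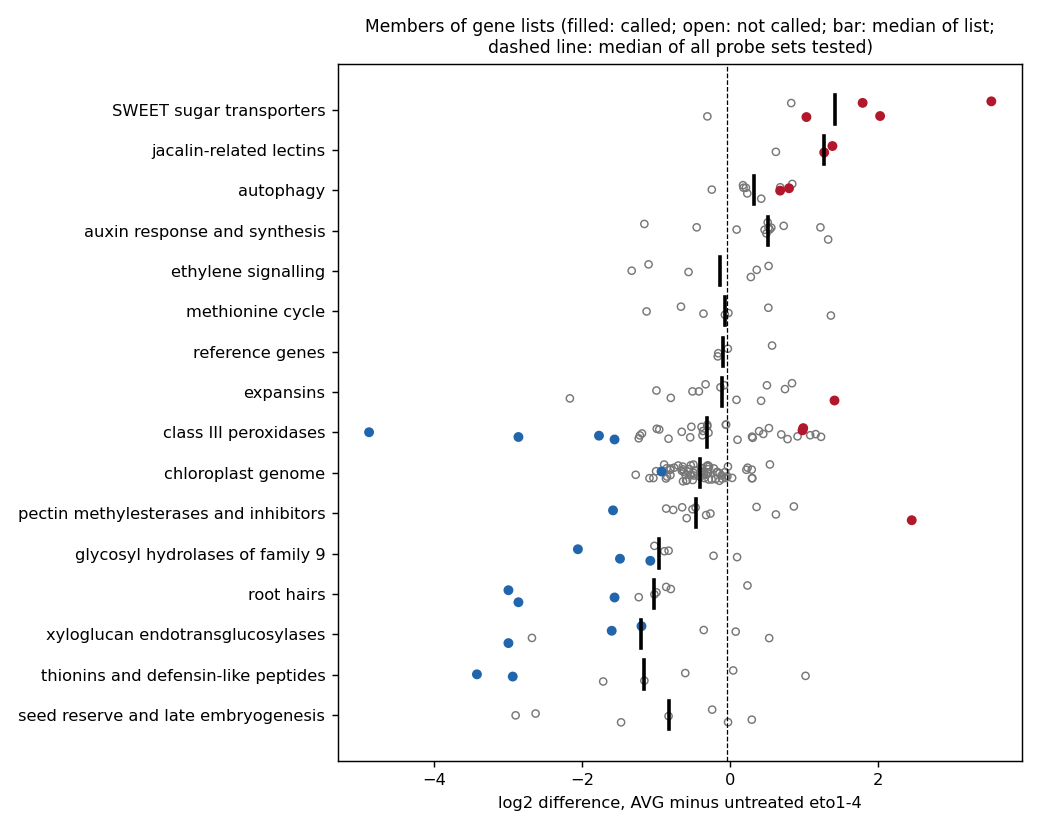
Each point is 1 tested gene of a list at its log2 difference, AVG minus untreated eto1-4 (x axis). Filled points were called (red higher, blue lower), open points were not, the black bar is the list's median and the dashed line the median of all probe sets tested, -0.0445. The SWEET and jacalin lists have their medians at 1.41 and 1.27 and the xyloglucan list at -1.20, while the thionin median of -1.16 was -0.0977 without untreated replicate 1.

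Genes outside the lists account for many of the largest rises. AT4G37220 had 8441 and 9372 with AVG, against 367 and 1034 in untreated eto1-4, the largest rise among the named genes at 3.80 ± 0.84 (adjusted p = 0.0326). Its untreated arrays differed from each other, and both AVG arrays stood several fold above either. AT2G43535 had 6839.9 and 7342 with AVG, against 1096 and 1869.7 in untreated eto1-4, and rose by 2.29 ± 0.27 (adjusted p = 0.00714), still called without untreated replicate 1 at adjusted p = 0.0491. AT4G04630 had 727 and 563 with AVG, against 61.4 and 96.6 in untreated eto1-4, and 60.4 and 38.1 in Col-0, so that AVG stood above both other groups, and rose by 2.73 ± 0.51 (adjusted p = 0.0206). These loci were placed on no list, and no role is given for them here. AT5G57670 had 292 and 231 with AVG, against 1.86 and 5.20 in untreated eto1-4, and rose by 3.45 ± 0.66 (adjusted p = 0.0215), with an untreated mean below the offset, so that its size depends on the offset.

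In several of the largest rises the 2 AVG arrays differed from each other. AT1G72140 had 1039 and 336 with AVG, against 25.4 and 62.9 in untreated eto1-4, and rose by 3.27 ± 0.79 (adjusted p = 0.0431). AT2G16005 had 679 and 188 with AVG, against 16.1 and 24.6 in untreated eto1-4, and rose by 3.17 ± 0.70 (adjusted p = 0.0326), and AT3G47250 had 793 and 207 with AVG, against 30.6 and 66.2 in untreated eto1-4, and rose by 2.66 ± 0.55 (adjusted p = 0.0262). In these AVG replicate 1 was the higher array, while in AT4G22610 it was replicate 2. That gene read 390.2 and 794 with AVG, against 30.7 and 66.2 in untreated eto1-4 (difference 3.08 ± 0.66, adjusted p = 0.03). The untreated arrays were dim in all 4 and below both AVG arrays.

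AT5G23830 had 1378 and 1611 with AVG, against 371 and 577 in untreated eto1-4, and rose by 1.64 ± 0.22 (adjusted p = 0.00929). AT5G18970 had 999 and 821 with AVG, against 206 and 271 in untreated eto1-4, and rose by 1.84 ± 0.24 (adjusted p = 0.00899). AT3G61160 had 912 and 823 with AVG, against 155 and 207 in untreated eto1-4, and rose by 2.14 ± 0.32 (adjusted p = 0.0121). In these genes the groups lay far apart and the replicates close together, except the untreated arrays of AT5G23830. Its difference was 1.94 against untreated replicate 1 alone and 1.33 against replicate 2 alone. AT2G28410 had 451 and 400.0 with AVG, against 169.7 and 126 in untreated eto1-4, and rose by 1.41 ± 0.18 (adjusted p = 0.00899), and without untreated replicate 1 it differed by 1.59 (adjusted p = 0.0326). AT1G71740 rose by 1.48 ± 0.20, AT5G48110 by 2.25 ± 0.39, AT5G11070 by 2.39 ± 0.51 and AT4G25780 by 2.44 ± 0.56.

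Genes outside the lists were also among the largest falls. ARPN, a plantacyanin, which is a small copper protein, had 134 and 169.8 with AVG, against 1535 and 1012 in untreated eto1-4, and fell by 2.87 ± 0.57 (adjusted p = 0.0235). AT2G41090 had 92.9 and 167 with AVG, against 992 and 1005 in untreated eto1-4, and fell by 2.79 ± 0.40 (adjusted p = 0.0109). AT5G44580 had 177 and 238 with AVG, against 1449 and 1747 in untreated eto1-4, and fell by 2.82 ± 0.46 (adjusted p = 0.0147). In each the groups stayed well apart, and the Col-0 arrays lay between, at 422 and 339 for ARPN, 232 and 225 for AT2G41090 and 449 and 300.1 for AT5G44580. The differences of 4 more called genes were -3.11 ± 0.52 for AT3G28310, -2.90 ± 0.63 for AT5G40590, -2.66 ± 0.66 for AT3G29410 and -2.63 ± 0.40 for AT3G55720. AVG replicate 1 of AT3G28310, at 15.7, lay below the offset, and the difference was between -3.90 and -2.17 over the alternatives. AT5G66310 had 344 and 375 with AVG, against 890.5 and 1147 in untreated eto1-4, and fell by 1.44 ± 0.18 (adjusted p = 0.00779), a call that also held without untreated replicate 1. Of the 38 named genes called lower, AVG replicate 2 was closer to the untreated mean in 36, and over all 352 lower calls in 300 (85.2%), against 303 of the 437 higher calls (69.3%).

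Markers of particular cells were described because a whole seedling mixes them, and in bulk RNA fewer cells of a type and less RNA per cell cannot be told apart. Of 9 tested root hair genes 3 fell, namely XTH26, AT3G49960 and AT4G26010, against 2.37% of all probe sets called lower. On average 8 of the 9 were lower, and the median was -1.02. Their summed signal was 3715 to 4689 on the AVG arrays, 6088 to 9438 on the untreated arrays and 3088 to 4451 on the Col-0 arrays. The median was -0.60 against untreated replicate 1 alone and -1.49 against replicate 2 alone, and no member was called when either untreated array was left out. XTH26 and the peroxidases of this list also stand in the wall lists, and whether root hairs had a part in those falls was not tested.

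Seed reserve and late embryogenesis genes set the 2 untreated arrays apart. Their summed signal was 2609 to 3916 on the AVG arrays, 3019.7 to 18495 on the untreated arrays and 2579 to 3238 in Col-0. PAP85, a seed storage protein, had 49.9 and 140.5 with AVG, against 6894 and 42.6 in untreated eto1-4. The high value stood on untreated replicate 1 alone. None of the 7 genes was called, against 5.32% of all probe sets. The median was -1.91 against untreated replicate 1 and 0.74 against replicate 2. Without untreated replicate 2 there were 4 lower calls, and with the spiked arrays alone there were 2 higher calls. Whether seed RNA had a part in other differences was not tested.

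**Figure D5:**
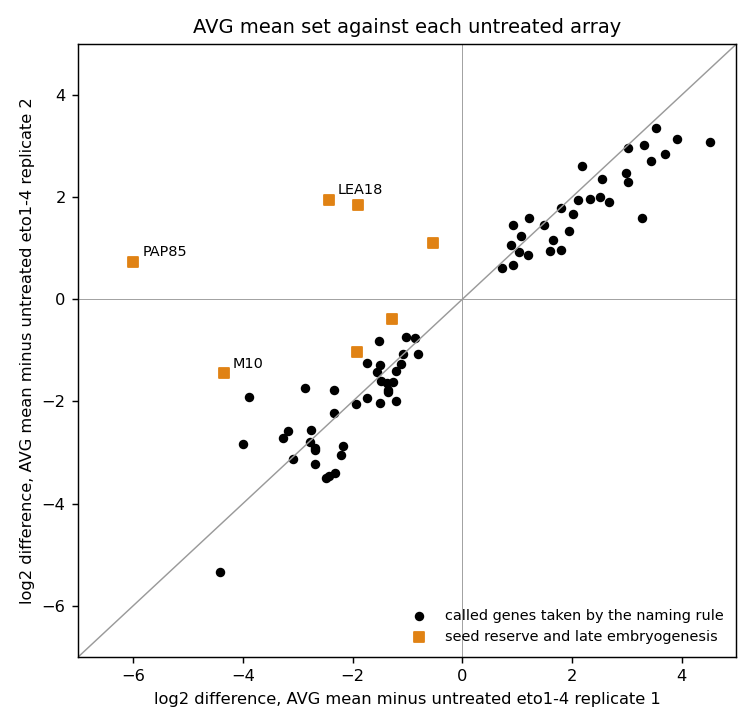
Log2 difference of the AVG mean from untreated replicate 1 (x axis) and from untreated replicate 2 (y axis), with the line of equality. Black points are the 69 called genes that the naming rule took. All lie on the same side of 0 against both arrays, which the lack of overlap in every call fixes in advance. Orange squares are the 7 seed reserve and late embryogenesis genes, with PAP85, LEA18 and M10 labelled.

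Other tissue markers moved less. The 7 nuclear photosynthesis genes had a median of 0.00 and the 4 reference genes of -0.10, none called, against 5.32% of all probe sets. Of 68 tested genes of the chloroplast genome 61 were lower on average, with a median of -0.40, and 1 was called, against 2.37% of all probe sets called lower. This was rpl22, a ribosomal protein gene, which read 2881 and 3884 with AVG, against 5880.3 and 7046 in untreated eto1-4, a difference of -0.94 ± 0.22 (adjusted p = 0.0422) that was lost after median centring. With the spiked arrays only, 9 chloroplast genes were called lower. The 4 measured pollen genes had a median of 0.19 and none was called.

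Whether these differences were particular to AVG was tested against the mean of the 3 other compounds, each given at the same 10 µM dose. In this contrast the untreated arrays cancel. A single probe set (0.00674%) was called, that of THI2.2, and 1795 (12.1%) had an unadjusted p under 0.05. THI2.2 read 5.21 and 5.90 with AVG, 656 and 617 with 9393, 856 and 529 with 9370 and 113 and 394 with 7303. Its AVG arrays lay below all others of the series, and the difference from the 3 compounds was -4.09 (95% interval -4.98 to -3.21, adjusted p = 0.0164). The call held in 15 of the 25 other settings, with the difference between -5.77 and -2.51 over all of them.

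Of the 69 called genes that the naming rule took, 50 had a 95% interval of the difference from the 3 compounds that includes 0, and 19 had one that does not. Of all 789 calls, 235 had an unadjusted p under 0.05 in this contrast, and both contrasts use the AVG arrays. SWEET17 differed from the 3 compounds by -0.24 (95% interval -1.36 to 0.87) and SWEET16 by -0.12 (-0.51 to 0.27). AT4G11190 differed by 0.11 (-0.27 to 0.50). These 3 intervals include 0, which does not show that the compounds act alike. The comparisons with untreated eto1-4 share its 2 arrays, and side by side SWEET17 differed from it by 3.53 ± 0.61 with AVG, 3.37 with 9393, 3.76 with 9370 and 4.18 with 7303.

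Some genes of the ethylene and methionine pathways had intervals on one side of 0 without passing the adjusted test. AT1G12010 was higher with AVG than with the 3 compounds by 0.80 (95% interval 0.30 to 1.31, adjusted p = 0.218), and read 1185 and 1161 with AVG, 759 and 499 with 9393, 1019 and 598 with 9370 and 647 and 566 with 7303. MGL was higher by 1.41 (0.22 to 2.60, adjusted p = 0.322). It read 3885 and 4368 with AVG, 696 and 2358 with 9393, 528 and 2519 with 9370 and 2956 and 2004 with 7303. The low replicate 1 arrays of 9393 and 9370 were without spike signal, unlike both AVG arrays. RTE1 was higher by 0.58 (0.03 to 1.12, adjusted p = 0.381), and read 268 and 465 with AVG, 269.6 and 229 with 9393, 198 and 246 with 9370 and 238 and 203 with 7303. AVG replicate 2 held the highest RTE1 signal of all treated arrays. Outside these pathways AT2G16005 was higher by 1.64 (0.36 to 2.91, adjusted p = 0.287) and XTH33 differed by -0.89 (-1.61 to -0.17, adjusted p = 0.308). AT4G04630 was higher by 1.48 (0.55 to 2.42, adjusted p = 0.219).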

How the data were processed

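Whole-seedling total RNA was measured on 12 Affymetrix arrays in 6 groups of 2. The deposited table holds 1 linear signal intensity per probe set and array, made by the authors with MAS5 per the submitters' processing notes, which state no version. Trimmed means of 500.039 to 500.045 on all arrays show that each was scaled to the same level, and the number of arrays limits the precision.

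Intensities were taken to log2 after adding 22.4, the 20th percentile of all signals. The 64 control probe sets were left out, and a probe set was tested if it lay above the 40th percentile of its array on at least 2 arrays, which left 14830 of 22810. All 12 arrays with 1 mean per group were fitted in limma 3.58.1 (R 4.3.3) with an intensity trend, and p-values were adjusted by Benjamini-Hochberg over all probe sets tested, with calls at an adjusted p under 0.05. The script was tested on simulated data. Gene names come from the platform annotation, matched through gene identifiers to locus tags of assembly TAIR10.1. Among the tested probe sets 7995 (53.9%) named 1 gene, and 8730 of all probe sets have no gene in the annotation used here.

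Genes named are the 15 largest rises and falls among calls whose arrays do not overlap, the 8 smallest adjusted p each way, called members of 41 gene lists, and measured members of the ethylene and methionine lists, 82 in all. Members and lists were chosen with earlier results of these data known, and most lists were rewritten once the annotation was seen. The alternatives were other offsets, filters, scalings and variance settings, blocks for replicate number and spike, other sets of arrays, and leaving out each array. Deviations of same-numbered arrays from their group means correlated at -0.272 to 0.781 between groups, at -0.236 for AVG with untreated eto1-4, and at 0.383 and 0.311 for untreated eto1-4 with 9393 and 9370 (0.781 between these 2 compounds). Not every correlation was positive, so the numbers were not taken as pairs.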

Additional observations from a re-analysis of the deposited data

How the results depend on the processing

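The 789 calls between AVG and untreated eto1-4 kept their direction in all 25 alternatives wherever they were tested. Because the groups did not overlap in any of them, only quantile normalization, median centring and the spike block could have changed a sign. The count was 537 without a filter, 765 and 792 with offsets at the 5th and 40th percentile, and 794 after quantile normalization. It was 353 when only the 2 groups compared were fitted, and 4 to 1123 when 1 array was left out. The lowest counts came without AVG replicate 1 (4), untreated replicate 1 (18), AVG replicate 2 (327), either 7303 array (359) or either Col-0 array (487). Median centring moved the median of all probe sets to 0.0575 and gave 913 calls, 69.8% of them higher, against 55.4% as reported. Quantile normalization gave 60.5% higher. A replicate block gave 1112 calls and a spike block 1104. Same-numbered arrays deviated together among some groups (r up to 0.781) but not between AVG and untreated eto1-4 (r = -0.236). A crossed replicate block, added after the data were seen, gave 1577.

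Against the mean of the other 3 compounds, 0 probe sets were called with the offset at the 40th percentile, with the spiked arrays only, where 3206 had an unadjusted p under 0.05, and when only the groups compared were fitted. Leaving out 1 array gave 0 to 7. Of the 69 named calls, 37 held with only the groups compared and 69 with the replicate block. None changed direction, which the lack of overlap fixed in advance in most settings. Among uncalled genes SAMDC turned to 0.032 after quantile normalization, 0.079 after median centring, 0.051 with the spike block and -0.20 to 0.15 when 1 array was left out (0.0024 without AVG replicate 2). HMT-1 turned to 0.032 after median centring and lay between -0.42 and 0.28 when 1 array was left out, the highest without untreated replicate 2. The cause of these changes was not tested. Dim signals limit the size of differences where a group mean lies below the offset, as for AT5G57670, AT2G16005, THI2.2, AT2G43140 and XTH26. The same holds where 1 array lies below it, as for CYP718, AT3G49960 and AT3G28310.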
